A study of Mus musculus with 6 samples.

Results

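The genes described here are 9 genes of amyloid precursor biology in the choroid plexus (ChP), the epithelium inside the brain ventricles that secretes cerebrospinal fluid. They are App with its paralogs Aplp1 and Aplp2, the secretases Bace1, Bace2 and Psen2, the peptidases Ide and Ece1, and the secreted protease inhibitor Cst3. They were taken by symbol from a table of 24354 gene names, with no use of their values, and all 9 symbols were found. The table holds FPKM (sequenced fragments assigned to a transcript, scaled by its length and by the mapped total of the library) from 3 adult and 3 embryonic samples. The samples were compared to find the transcripts on ribosomes that differ between the embryonic and the adult ChP.

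All samples at both ages came from mice labelled FoxJ1:cre x bacTRAP (EGFP:L10a), a cross of a Cre line with a line for the tagged ribosomal protein. The label names the cross and not the genotype of each animal. In TRAP (translating ribosome affinity purification), ribosomes with an EGFP-tagged L10a subunit are pulled down together with the mRNA they carry. The tag was switched on by Cre under the Foxj1 promoter, which is active in multiciliated cells, so that mRNA of the ChP epithelium was sought and any other cell with a history of Foxj1 expression could also add its mRNA. Adults were 60 days old by the labels, and embryos were taken at embryonic day 16.5 (E16.5). By the methods, each sample was ChP of the lateral ventricle pooled from 3 mice aged 8 weeks or from 3 litters, whereas the series text gives 3 mice per age. A replicate is therefore a pooled sample or 1 mouse, and the p-values measure the spread between these samples. In such bulk samples, fewer cells of a type and less RNA per cell cannot be told apart.

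Amyloid precursor protein is a membrane protein that is cut in either of several ways. Cutting by an alpha-secretase of the Adam family releases a large soluble ectodomain, whereas cutting by the beta-secretase Bace1 followed by gamma-secretase, the complex of a presenilin such as Psen2 with Ncstn, Aph1 and Psenen, releases amyloid-beta peptide. The peptide is degraded by peptidases such as insulin-degrading enzyme (Ide), endothelin-converting enzyme (Ece1) and Ace, is bound by carriers such as Ttr, Apoe, Clu and cystatin C (Cst3), and is taken up by lipoprotein receptors such as Lrp1. The ChP is known for secreting several of these carriers into cerebrospinal fluid.

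App lies at chr16:84949685-85173766 on mm10, Aplp1 at chr7:30434982-30445535 and Aplp2 at chr9:31149557-31211815, all on the minus strand. Their promoters are shown because App rose with age and its paralogs did not pass the test. The RefSeq sequence of GRCm38.p6 is given for the 250 bases before each RefSeq start, read 5′ to 3′ along the gene, at chr16:85173708-85173957 for App, chr7:30445583-30445832 for Aplp1 and chr9:31211849-31212098 for Aplp2. Capitals mark GGGCGG, the core of the GC box.
App: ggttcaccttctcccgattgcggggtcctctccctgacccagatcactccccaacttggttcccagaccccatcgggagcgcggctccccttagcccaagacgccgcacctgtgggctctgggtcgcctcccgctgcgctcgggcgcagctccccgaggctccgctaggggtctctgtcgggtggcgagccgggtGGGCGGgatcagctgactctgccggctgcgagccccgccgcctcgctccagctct
Aplp1: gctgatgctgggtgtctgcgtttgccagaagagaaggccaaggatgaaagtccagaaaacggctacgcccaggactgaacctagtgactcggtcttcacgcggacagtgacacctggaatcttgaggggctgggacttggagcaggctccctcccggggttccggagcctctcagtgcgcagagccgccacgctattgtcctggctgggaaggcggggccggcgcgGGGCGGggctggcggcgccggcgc
Aplp2: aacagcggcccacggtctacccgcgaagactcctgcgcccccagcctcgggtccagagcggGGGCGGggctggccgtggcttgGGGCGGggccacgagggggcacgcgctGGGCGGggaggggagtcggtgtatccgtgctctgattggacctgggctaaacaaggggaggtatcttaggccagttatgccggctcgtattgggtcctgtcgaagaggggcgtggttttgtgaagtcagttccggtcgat
All 3 were rich in G and C, at 70.8%, 66.0% and 66.4% for App, Aplp1 and Aplp2, where the median of all 32851 promoters of that length in the RefSeq table was 52.4%. GGGCGG or its reverse complement CCGCCC stood once in the App and Aplp1 windows and 3 times in that of Aplp2, and 32.7% of all promoters held it. The E-box CAGCTG, which is its own reverse complement, stood once in the App window, in neither paralog's, and in 13.0% of all promoters. TATAAA or TTTATA was in none of the 3 windows and in 12.4% of all. These letters are a description of the sequence and say nothing of which factor binds.

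Depth and the levels of marker genes differed between the ages. One read in a kilobase was worth 0.113 to 0.324 FPKM in the adult libraries and 0.0639 to 0.0806 FPKM in the E16.5 libraries, as estimated from the steps between low values, so that the adult libraries were shallower and adult replicate 3 the shallowest. Of the genes tested, 10.3% to 36.4% were listed at 0 in an adult library and 3.68% to 4.02% in an E16.5 library. Such a 0 can be a failed estimate, and the defining ChP gene Ttr was itself listed at 0 in all 3 E16.5 libraries while it stood at 20922 to 31302 FPKM in the adult ones. The summed level of 14 ChP epithelium markers was 40495 to 55733 FPKM in adults and 3782 to 4494 FPKM at E16.5. Of them 5 were called higher in adults, as were 2.12% of all genes tested, and 1 higher at E16.5, as were 8.83% of all. Ttr, among the 5, had a mean FPKM above 1 only through its adult libraries, and nothing is read from its call. Ttr and Enpp2 were the largest in adults, with means of 27322 and 16676 FPKM, and Enpp2 had a mean of 273 FPKM at E16.5. Folr1, Aqp1, Otx2 and Igfbp2 were lower in every adult library, as were 31.0% of all genes tested, and Clic6 overlapped. The other markers of the list were higher in every adult library, as were 7.39% of all. The 8 markers of motile cilia in the table summed to 200 to 391 FPKM in adults and 918 to 1099 FPKM at E16.5. Of these 4 were called higher at E16.5, as were 8.83% of all genes tested. Dnah5 was listed at 0 in every adult and Spag6l in all 6 libraries. The 7 mesenchyme markers summed to 13.3 to 22.0 FPKM against 58.6 to 69.4 FPKM, and the 10 markers of neurons and progenitors to 3.38 to 9.88 FPKM against 30.0 to 122 FPKM, with 6 of the 10 at 0 in every adult. The ranges overlapped for the 7 endothelial markers (0.435 to 26.8 FPKM against 12.7 to 39.7 FPKM), the 9 macrophage markers (0.0695 to 6.82 FPKM against 0.584 to 8.48 FPKM), the 4 red cell markers (0 to 6.49 FPKM against 5.11 to 303 FPKM) and the 7 markers of oligodendrocytes and astrocytes (1.11 to 73.0 FPKM against 4.25 to 17 FPKM). The part of these cells in the results was not tested.

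App was the member that rose with age, from a level beside Aplp1 in the embryo to the highest of the 9 in the adult. It stood at 467, 922 and 778 FPKM in adult replicates 1, 2 and 3 and at 108, 89.2 and 97.5 FPKM in E16.5 replicates 1, 2 and 3. Every adult library lay above every E16.5 library, as for 7.39% of all genes tested. The means were 722 ± 232 FPKM in adults and 98.3 ± 9.57 FPKM at E16.5 (SD, n = 3 each), a ratio of 7.35. The log2 change of FPKM + 1, adult minus E16.5, was 2.81 ± 0.30 (SE) by limma, with an adjusted p of 0.00426 over the 11601 genes tested, those whose mean FPKM exceeded 1. Over all those genes the median log2 change was -0.86, so that App lay 3.67 above the median gene. Ranked by FPKM within a library, App was gene 39, 30 and 26 in the adults and gene 654, 841 and 665 at E16.5. Without E16.5 replicate 2 the log2 change of App was 2.75 but its adjusted p by limma was 0.0559, in a fit that called 43 of 11459 genes.

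Aplp1 and Aplp2, which share the ectodomain folds of App but lack the amyloid-beta sequence, did not pass the test. Aplp1 stood at 223, 223 and 86.0 FPKM in the adults and at 131, 102 and 97.9 FPKM at E16.5. Adult replicate 3 was the lowest of all 6 libraries and the other adults were the highest, so that the ages overlapped. The log2 change of Aplp1 was 0.57 ± 0.41 (limma, adjusted p = 0.376), it was -0.26 when the libraries were scaled to the same sum, and without adult replicate 3 it was 1.02 with an adjusted p of 0.0414. Aplp2 stood at 291, 434 and 379 FPKM in the adults and 291, 280 and 304 FPKM at E16.5. Adult replicate 1 lay among the embryonic values and the other adults above them, and the log2 change was 0.32 ± 0.24 (limma, adjusted p = 0.397) and -0.51 with libraries scaled to the same sum.

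**Figure D1:**
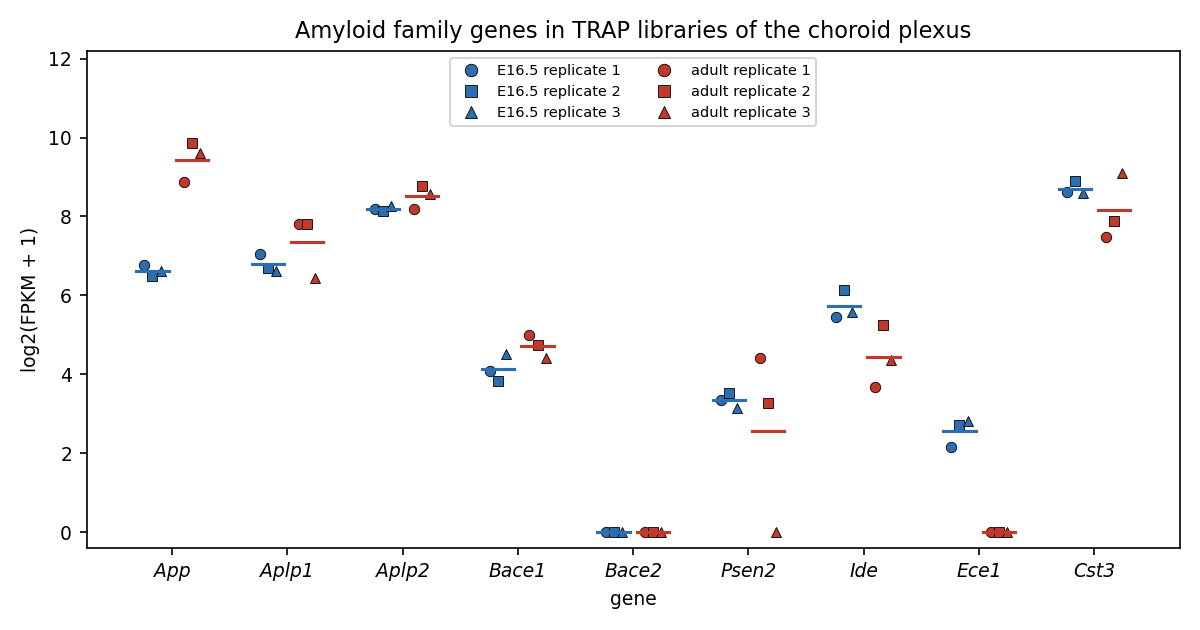
Level of each of the 9 genes, as log2(FPKM + 1) on the vertical axis, in the 3 E16.5 (blue) and 3 adult (red) libraries, with marker shapes for replicates and bars for the group means. App has every adult library above every E16.5 library, as have 7.39% of all genes tested, and Bace2 is at 0 in all 6. Ide and Ece1 have every adult library below, as have 31.0% of all.

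Within each library Aplp2 was the main gene of the precursor family in the embryo and App in the adult. App took 47.7%, 58.4% and 62.6% of the summed FPKM of the 3 genes in adult replicates 1, 2 and 3, and 20.4%, 18.9% and 19.5% at E16.5. Aplp2 took 29.6%, 27.5% and 30.5% in the adults and 54.9%, 59.4% and 60.9% at E16.5. The shares of neither gene overlapped between the ages. Aplp1 took 22.7%, 14.1% and 6.92% in the adults and 24.6%, 21.7% and 19.6% at E16.5, so that its adult shares spread from within the embryonic range to well below it. The summed level of the family was 981, 1580 and 1243 FPKM in the adults and 530, 472 and 499 FPKM at E16.5.

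Ratios within a library do not depend on how libraries are scaled to each other. The log2 ratio of Aplp2 to App was -0.68, -1.08 and -1.03 in the adults and 1.42, 1.64 and 1.63 at E16.5, a difference of -2.50. That of Aplp1 to App was -1.07, -2.04 and -3.16 in the adults and 0.27, 0.19 and 0.01 at E16.5, a difference of -2.25. Both ratios were lower in every adult library than in every E16.5 library. The two-sided exact permutation p was 0.1 for each, the smallest that 3 samples against 3 allow, and 0.15 after adjustment over the 3 ratios compared. The design could thus not reach 0.05 for a single ratio. With 1 library left out at a time, the differences ranged from -2.62 to -2.42 for Aplp2 and from -2.76 to -1.71 for Aplp1.

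**Figure D2:**
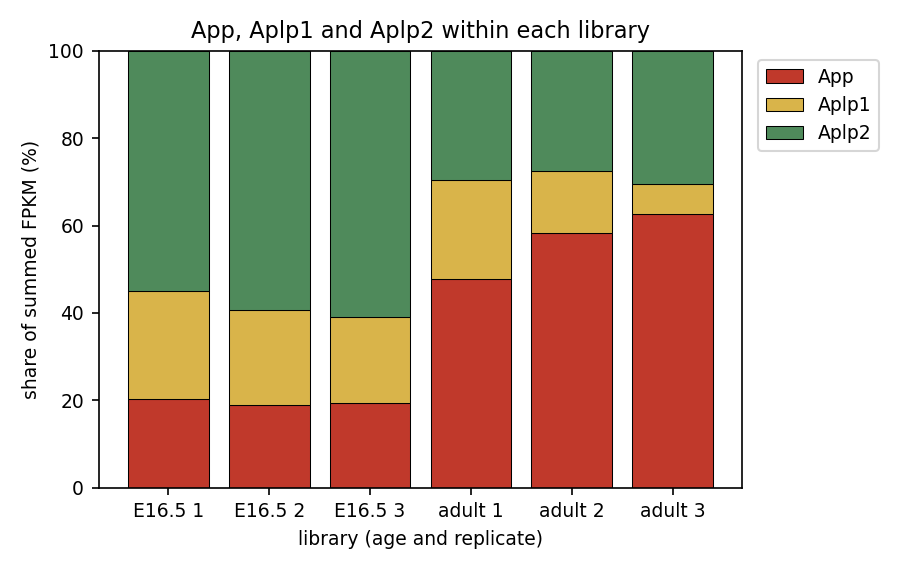
Share of the summed FPKM of App, Aplp1 and Aplp2 taken by each gene, in percent, in each of the 6 libraries. Aplp2 holds 54.9% or more of the sum in every E16.5 library, and App has the largest share in every adult library, from 47.7% to 62.6%.

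The beta-secretases gave levels far below that of their substrate. Bace1 (chr9:45838580-45864399, plus strand) makes the first cut toward amyloid-beta, and stood at 30.6, 25.9 and 20.2 FPKM in the adults and at 15.9, 13.2 and 21.8 FPKM at E16.5. Adult replicate 3 lay within the embryonic range, and the log2 change was 0.57 ± 0.41 (limma, adjusted p = 0.366), or -0.22 with libraries scaled to the same sum. Of the exon bases of Bace1, 15.4% overlap the gene Rnf214 on the opposite strand, and how Cuffquant treated strand is not given in the sources used here, so that reads from that stretch may belong to either gene. Bace2 (chr16:97356742-97442936, plus strand), the second beta-site cleaving enzyme, was listed at 0 in all 6 libraries and was not tested. On its longest transcript 3 reads would have given 0.0455 to 0.131 FPKM in the adult libraries and 0.0257 to 0.0325 FPKM at E16.5, for counting error only.

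Psen2 (chr1:180227004-180263438, minus strand), a catalytic subunit of gamma-secretase, stood at 20.2, 8.61 and 0 FPKM in the adults and at 9.10, 10.6 and 7.86 FPKM at E16.5. The adult libraries thus held the highest value, a value among the embryonic ones, and a 0 in adult replicate 3, where the level of adult replicate 2 would have been 48.4 reads. The log2 change of Psen2 was -0.78 ± 1.10 (limma, adjusted p = 0.647), and 0.50 without adult replicate 3 (adjusted p = 0.528), so that its direction rested on that library.

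The peptidases Ide and Ece1 were lower in every adult library than in every E16.5 library, as were 31.0% of all genes tested. Ide (chr19:37268743-37337852, minus strand), a zinc peptidase that degrades insulin and amyloid-beta, stood at 11.7, 37.2 and 19.4 FPKM in the adults and at 43.1, 69.0 and 46.4 FPKM at E16.5. Adult replicate 2 came nearest to the embryonic values, and the means were 22.8 ± 13.1 FPKM and 52.8 ± 14.1 FPKM (SD, n = 3 each). The log2 change of Ide was -1.29 ± 0.48 by limma, with an unadjusted p of 0.029 and an adjusted p of 0.119, and lay 0.44 below the median gene. It passed the test without adult replicate 2 (-1.71, adjusted p = 0.0456) and with libraries scaled to the same sum (-2.11, adjusted p = 0.0304).

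Ece1 (chr4:137862237-137965229, plus strand), a membrane metallopeptidase that makes endothelin and degrades amyloid-beta, was listed at 0 in all 3 adult libraries. At E16.5 it stood at 3.42, 5.59 and 6.01 FPKM, a mean of 5 ± 1.39 FPKM (SD, n = 3). It was above the filter on low values only through its E16.5 libraries, so that a gene in its place had to differ. With every adult value at 0, its fitted log2 change followed the pseudocount and does not measure the size of a change. It was -2.56, -5.63 and -8.93 at pseudocounts of 1, 0.1 and 0.01. At its lowest embryonic level the longest transcript would have held 61.4, 140 and 48.7 reads in adult replicates 1, 2 and 3. As it passed the filter only through its E16.5 libraries, its adjusted p by limma, 0.0327, is a description and no support. It was above the threshold without adult replicate 1 (adjusted p = 0.0775), without any 1 of the E16.5 replicates (adjusted p = 0.0757 to 0.0838) or under quantile normalization (adjusted p = 0.0899).

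Cst3 (chr2:148871722-148875692, minus strand), the secreted cysteine protease inhibitor cystatin C that binds amyloid-beta, stood at 178, 237 and 550 FPKM in the adults and at 391, 475 and 383 FPKM at E16.5. Adult replicate 3 was the highest of all 6 and the other adults were the lowest, so that the ages overlapped in the way opposite to Aplp1. The log2 change of Cst3 was -0.54 ± 0.41 (limma, adjusted p = 0.401). Without adult replicate 3 it was -1.01 and passed the test (adjusted p = 0.0449), as it did with libraries scaled to the same sum (-1.37, adjusted p = 0.0487).

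Of the 9 genes, 8 had a mean FPKM above 1 and were tested, Bace2 being the exception. App was called higher in adults, as were 2.12% of all genes tested, and 6 were not called, as against 10.9% called in either direction over all genes. Ece1 was past the threshold toward E16.5, as were 8.83% of all, but passed the filter only through its E16.5 libraries, and nothing is read from that count. For App every adult library lay above every E16.5 library, which held for 7.39% of all genes, and for Ide and Ece1 every adult library lay below, which held for 31.0% of all, and the 3 genes without overlap stand beside 38.4% of all in either direction. For the 6 genes above 0 in all 6 libraries (App, Aplp1, Aplp2, Bace1, Ide and Cst3), the median log2 change was 0.44, beside -0.38 over the 6562 such genes of the table, with a range from -1.29 for Ide to 2.81 for App. Because the scaling moves all genes together, changes were also set against the median of all genes tested. App, Aplp1, Aplp2, Bace1 and Cst3 lay 3.67, 1.42, 1.17, 1.43 and 0.32 above it on the log2 scale, and Ide 0.44 below. That median includes genes listed at 0 in some libraries. Beside the median of -0.38 over genes above 0 in all 6, Cst3 at -0.54 lay below, and App, Aplp1, Aplp2 and Bace1 still lay above.

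**Figure D3:**
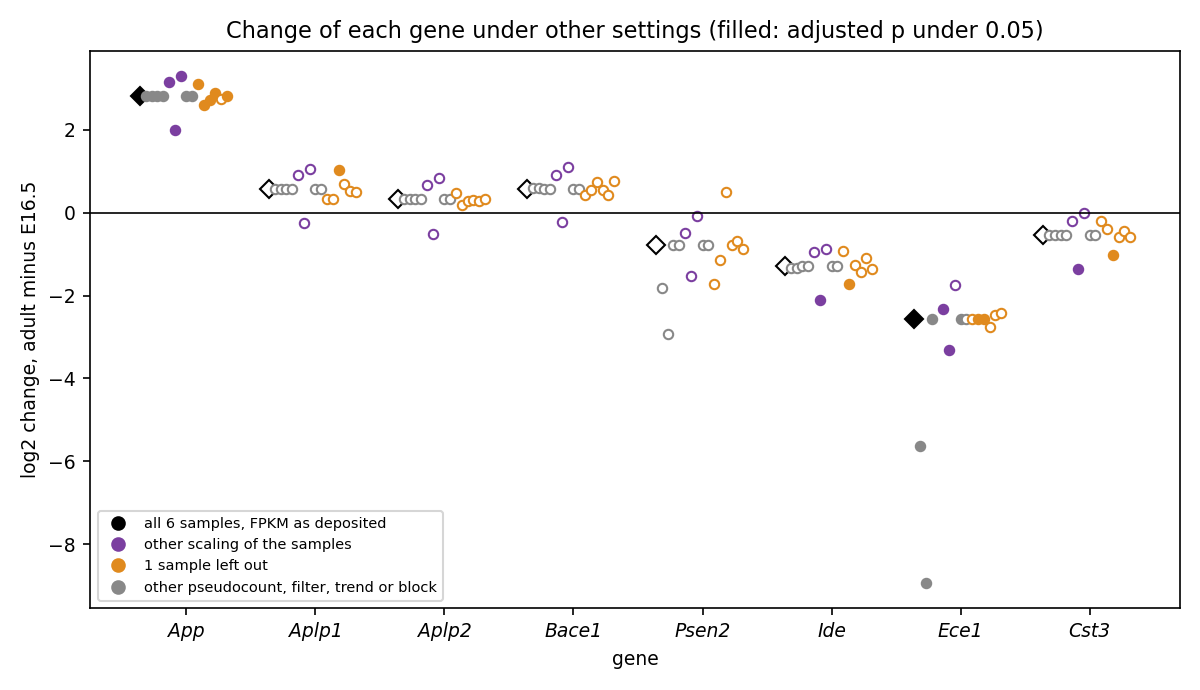
Log2 change of FPKM + 1 (or of FPKM plus another pseudocount, adult minus E16.5) of the 8 genes tested, with all 6 libraries as deposited (diamond) and under up to 15 other settings (circles), filled where the adjusted p by limma is under 0.05. App stays above 0 throughout, from 1.99 to 3.30, whereas Aplp1, Aplp2 and Bace1 lie below 0 under same-sum scaling, Psen2 lies above 0 without adult replicate 3, and the fitted change of Ece1 moves with the pseudocount because its adult values are 0.

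FPKM are per length, so that levels of the genes may be set side by side within an age. In the adults App led with a mean of 722 FPKM, apart from the next gene, followed by Aplp2 (368 FPKM), Cst3 (321 FPKM) and Aplp1 (177 FPKM), whose ranges overlapped from each to the next. Bace1 (25.6 FPKM) lay apart from those above and overlapped Ide (22.8 FPKM), and Ide overlapped Psen2, whereas Bace1 was above Psen2 in every adult library. At E16.5 the order was Cst3 (416 FPKM), Aplp2 (292 FPKM), then Aplp1 (110 FPKM) and App (98.3 FPKM), which overlapped, then Ide (52.8 FPKM), Bace1 (17 FPKM), Psen2 (9.19 FPKM) and Ece1 (5 FPKM), each apart from the next. App thus stood below Cst3, Aplp2 and Aplp1 by mean FPKM in the embryo and above all 3 in the adult, and Ide stood above Bace1 in every embryonic library but not in every adult one.

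The 3 tested genes whose levels over the 6 libraries were nearest to those of App, by Euclidean distance of log2(FPKM + 1), were C1qtnf5 at a distance of 0.70, the potassium channel gene Kcnj13 at 1.03 and Ace at 1.12. Their mean FPKM was 564, 796 and 499 in the adults and 95.2, 99.4 and 101 at E16.5. As they were chosen for values like those of App, that they too were higher in every adult library follows from the choice. Kcnj13 was also 1 of the ChP epithelium markers, and Ace 1 of the amyloid-degrading peptidases.

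The other genes of the pathway were taken from 8 lists of 75 genes besides the members, of which 63 were tested. Of these 63, 8 were called higher in adults (among them A2m, Ace, Itm2c, Lrp10, Ncstn, Rtn3 and Ttr) and 0 higher at E16.5 by limma, beside 2.12% and 8.83% of all genes, whereas 17 and 9 had an unadjusted p under 0.05, as did 620 and 3006 of all 11601 genes. Ttr among them passed the filter only through its adult libraries, and nothing is read from its call. With libraries scaled to the same sum, 3 of the 63 were called higher in adults and 8 at E16.5, and under quantile normalization 16 and 0. The median log2 change was 0.17, beside -0.86 over all genes tested, and every adult library lay above every E16.5 library for 20 genes and below for 11, beside 7.39% and 31.0% of all genes. Listed at 0 in every adult were 6 of the 63 (Ager, Apba2, Dab1, Ece2, Lrp2 and Psenen), or 9.52%, beside 6.46% of all genes tested. Among the 48 genes above 0 in all 6 libraries, 7 were called higher in adults and 0 at E16.5, where 232 and 355 of the 6562 such genes of the table were called, and their median was 0.37 beside -0.38 over the 6562.

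Of the enzymes that cut App, 1 gamma-secretase subunit was called. None of the 3 alpha-secretases passed the test, with a median log2 change of -0.96, beside -0.86 over all genes tested. Adam10, the main alpha-secretase of neurons, stood at 7.21, 19.8 and 4.24 FPKM in the adults and 36.2, 24.9 and 31.5 FPKM at E16.5, a log2 change of -1.71 ± 0.59 (limma, adjusted p = 0.0996). Its adult libraries all lay below its E16.5 libraries, as for 31.0% of all genes tested. Adam10 passed without adult replicate 2 (-2.27, adjusted p = 0.0289) and with libraries scaled to the same sum (-2.52, adjusted p = 0.0309). Adam9 differed by 0.10 ± 0.38 and in the other direction with libraries scaled to the same sum (-0.71). Among the 8 gamma-secretase subunits and modulators tested, Psen2 included, Ncstn alone was called, higher in adults, as were 2.12% of all genes tested. This subunit, which binds the substrate, stood at 62.3, 79.7 and 101 FPKM in the adults and 38.9, 18.7 and 28.9 FPKM at E16.5. Its log2 change was 1.49 ± 0.38 by limma, with an adjusted p of 0.0482 just inside the threshold, and it was called in 3 of 15 other settings. Tmed10, a cargo receptor that restrains gamma-secretase, differed by 0.96 ± 0.33 on the log2 scale (limma, adjusted p = 0.0974). The list went both ways, with a positive log2 change for 5 of the 8 and a median of 0.30. Every adult library lay above every E16.5 library for 3 and below for 1, beside 7.39% and 31.0% of all genes tested. The gene below was Psenen, listed at 0 in every adult.

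Of the regulators of Bace1, Rtn3 was called among 6 genes of that list tested, Bace1 included. Rtn3, a reticulon that binds and inhibits Bace1, stood at 124, 125 and 67.0 FPKM in the adults and 42.0, 40.3 and 23.3 FPKM at E16.5. All adult libraries lay above all E16.5 libraries, as for 7.39% of all genes tested. The log2 change of Rtn3 was 1.55 ± 0.39 (limma, adjusted p = 0.0469) and was called in 4 of 15 other settings. Its relative Rtn4 overlapped between the ages, with a log2 change of 0.35 ± 0.43 that was -0.45 with libraries scaled to the same sum.

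Among the 11 peptidases tested, Ide and Ece1 included, Ace rose. Ace, the angiotensin-converting enzyme, stood at 479, 500 and 519 FPKM in the adults and 103, 78.0 and 122 FPKM at E16.5. The adult libraries lay close together, and their mean was 4.95 times that at E16.5 (499 ± 20.2 FPKM against 101 ± 21.9 FPKM, SD, n = 3 each). The log2 change of Ace was 2.32 ± 0.25 (limma, adjusted p = 0.00427), and it was called in 15 of 15 other settings. Ctsd, the lysosomal protease cathepsin D, was more abundant than Ace at both ages (1266 ± 248 FPKM and 921 ± 93.2 FPKM) and did not pass the test, at 0.45 ± 0.23 (limma, adjusted p = 0.231) and -0.38 with libraries scaled to the same sum.

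Of the 10 amyloid-binding and carrier proteins tested, Cst3 included, 3 were called, all higher in adults, as were 2.12% of all genes tested. Ttr, the thyroxine carrier of cerebrospinal fluid, stood at 20922, 31302 and 29741 FPKM in the adults. It is listed at 0 at E16.5, which can be a failed estimate, so that no fold change is given. It passed the filter on low values only through its adult libraries, and nothing is read from its call. A2m, a protease inhibitor that binds amyloid-beta, stood at 60.9, 72.0 and 73.0 FPKM in the adults and 9.75, 14.4 and 20.7 FPKM at E16.5, a log2 change of 2.18 ± 0.39 (limma, adjusted p = 0.0187) called in 11 of 15 other settings. Itm2c, a membrane protein of the BRI family, stood at 93.7, 62.9 and 64.5 FPKM against 15.1, 27.6 and 22.5 FPKM, a log2 change of 1.73 ± 0.37 (limma, adjusted p = 0.031) called in 8 of 15 other settings. The 3 genes were named because they were called, so that their lack of overlap between the groups is no further support. Apoe, the lipid carrier, was at 978 ± 112 FPKM in the adults and 927 ± 233 FPKM at E16.5, with a log2 change of 0.10 ± 0.26 (limma, adjusted p = 0.809) that was -0.73 with libraries scaled to the same sum.

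The receptors gave the highest median of the 8 lists, a log2 change of 1.30 beside -0.86 over all genes tested. Of the 11 genes 2 were called, both higher in adults, as were 2.12% of all genes. Every adult library lay above every E16.5 library for 7 of the 11, beside 7.39% of all genes. Every adult library lay below for 2, Ager and Lrp2, listed at 0 in every adult, beside 31.0% of all. Lrp10, a sorting receptor for App, stood at 51.1, 69.8 and 97.6 FPKM against 30.3, 26.0 and 22.7 FPKM, a log2 change of 1.40 ± 0.36 (limma, adjusted p = 0.0481) called in 3 of 15 other settings. Lrp1, a receptor for Apoe and A2m, stood at 159, 138 and 139 FPKM against 48.5, 41.4 and 98.4 FPKM and missed the threshold, with a log2 change of 1.30 ± 0.37 (limma, adjusted p = 0.0636). Both receptors were higher in every adult library than in every E16.5 library.

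None of the 8 genes of the retromer and of endocytosis, nor of the 11 adaptors of App tested, was called. Over all genes tested 10.9% were called. The median log2 changes of the 2 lists were -0.50 and -0.69, both above the -0.86 of all genes tested. The retromer core gene Vps35 was lower in every adult library, as were 31.0% of all genes tested. It stood at 61.9, 47.6 and 33.6 FPKM against 64.6, 79.8 and 105 FPKM, with a log2 change of -0.80 ± 0.35 (limma, adjusted p = 0.169). Vps26b, another retromer subunit, had a log2 change of 0.55 ± 0.31 that was -0.26 with libraries scaled to the same sum. Of the adaptors, the endocytic Dab2 was at 99.0 ± 4.71 FPKM in the adults and 61.9 ± 12.1 FPKM at E16.5 (SD, n = 3 each), a log2 change of 0.69 ± 0.28 (limma, adjusted p = 0.147) that was -0.13 with libraries scaled to the same sum. Vps26b and Dab2 were higher in every adult library, as were 7.39% of all genes tested. Apbb1, known as Fe65, overlapped between the ages, with a log2 change of -0.69 ± 0.47 (limma, adjusted p = 0.346).

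**Figure D4:**
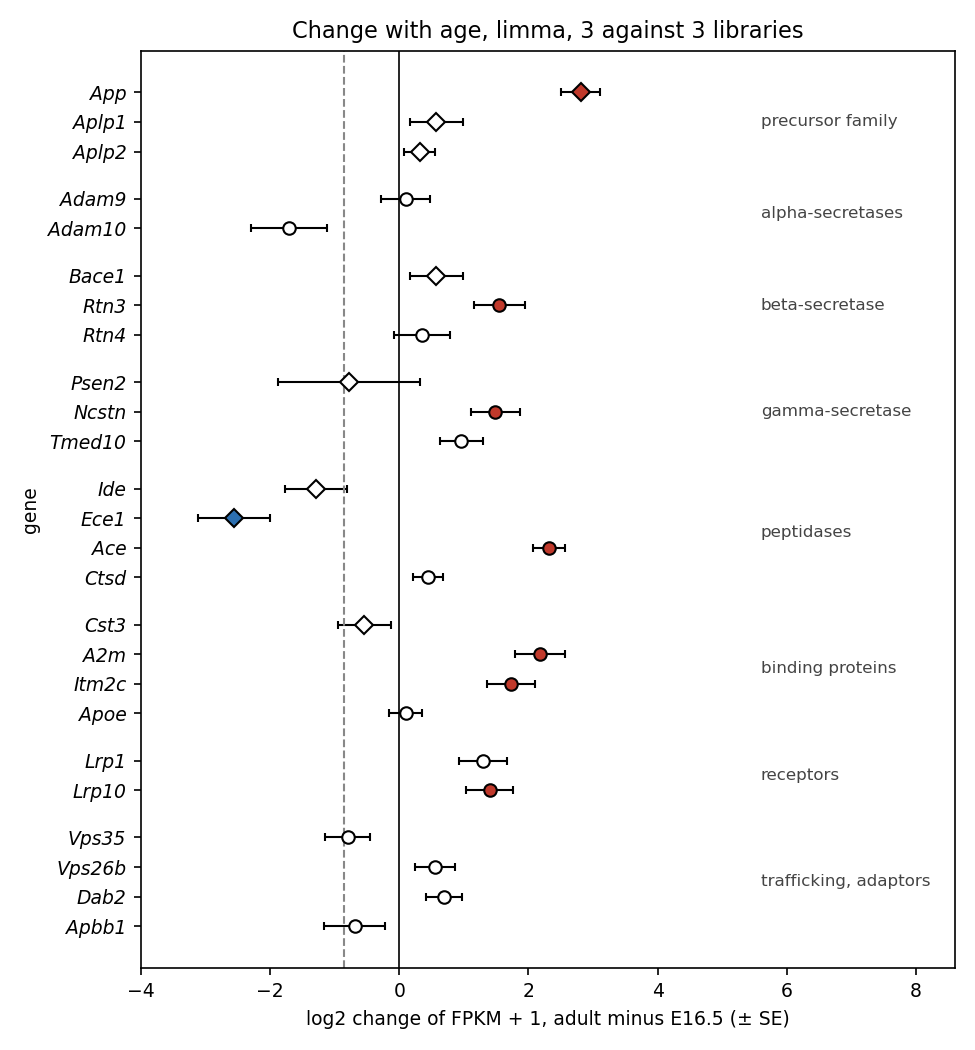
Log2 change of FPKM + 1, adult minus E16.5, with its SE, for the 8 members tested (diamonds) and the genes of the 8 pathway lists whose log2 change is given in the text (circles), by role. Ttr and the list genes named only as listed at 0 in every adult are not drawn. Red marks genes called higher in adults by limma at an adjusted p under 0.05 and blue marks Ece1, whose place depends on the pseudocount because its adult values are 0, open symbols were not called, and the dashed line is the median of all genes tested, -0.86, with scaling to the same sum turning Aplp1, Aplp2, Bace1, Adam9, Rtn4, Ctsd, Apoe, Vps26b and Dab2 below 0.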

How the data were processed

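The labels put 3 ChP TRAP-seq samples in the adult and 3 in the E16.5 group. By the methods and the submitters' processing notes, the authors aligned single-end reads of 50 bases to mm10 with STAR 2.4.0 and calculated the deposited FPKM with Cuffquant (Cufflinks), whose gene annotation is not given in the sources used here. The authors tested read counts with DESeq2, and those counts were not analysed here.

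FPKM were used as deposited, and every column of sample values was used. A gene was tested if its FPKM averaged over 1 in the 6 samples, on the log2(FPKM + 1) scale, which understates changes of low genes. The test was that of limma 3.58.1 (R 4.3.3), two-sided, fitted with a trend on intensity and without covariates, and Benjamini-Hochberg adjusted p under 0.05 was called. The script was tested on simulated data. Ratios of paralogs were compared by exact permutation tests (Python 3.11.15, scipy 1.17.1). A ratio of Bace2 to Bace1 was not formed, since Bace2 was at 0 throughout.

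FPKM hold no read totals. Depth was read from 35 to 63 low values per library in 2523 genes with transcripts over 1000 bases, with 200 bases taken off the transcript length, and 65.1% to 82.1% of those values were whole reads to within 0.1, against 20% by chance. Reads carry no molecular identifiers, so that floors of 3 reads cover counting error only. Gene positions are from GENCODE M21 on mm10, in which stretches of 50 bases shared with other genes made up 0.21% or less of each member.

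The members and lists were chosen with earlier results of these data known. Named were every member, and in each list up to 3 called genes in each direction and the 2 most abundant. Also named were the 3 genes nearest to App and the most abundant markers, of which Ttr and Enpp2 appear here. Some results under this rule, with a further ratio that entered the adjustment, are not reported here. The marker genes at 0, the other ChP markers given by direction and the list genes at 0 in every adult were named after their values were seen. Alternatives were other pseudocounts, filters, scalings, thresholds, a fit without trend, a replicate block and each library left out.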

Additional observations from a re-analysis of the deposited data

How the results depend on the processing

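Changes are adult minus E16.5 on the log2 scale. Of 16 alternatives App kept its direction in 16 (1.99 to 3.30) and its call in 15, and leaving out 1 library at a time gave 2.61 to 3.10, with the call lost without E16.5 replicate 2. Where only the filter, trend, replicate block or threshold changed, the estimate of App was 2.81 by construction and its direction could not turn. Scaling libraries to the same sum called 114 genes higher in adults and 3099 at E16.5 (median -1.57, 3.55% of calls higher in adults against 19.4%), with 3 of the 9 genes higher at E16.5 and 3 and 8 of the pathway genes in the 2 directions. It turned Aplp1 (-0.26), Aplp2 (-0.51), Bace1 (-0.22), Adam9 (-0.71), Rtn4 (-0.45), Ctsd (-0.38), Apoe (-0.73), Vps26b (-0.26) and Dab2 (-0.13), and Ide (-2.11) and Cst3 (-1.37) then passed the test. Quantile normalization called 466 and 449 genes (median -0.15, 50.9% higher in adults), 0 of the 9 at E16.5 (Ece1 -1.75) and 16 pathway genes in adults, and median-ratio scaling called 349 and 658 (median -0.56, 34.7%). Without a trend, 158 genes were higher in adults, with 4 and 1 pathway genes. Pseudocounts of 0.1 and 0.01 each called 4 pathway genes in adults and 4 at E16.5, and no filter called 5 and 1. A mean FPKM above 5 left Ece1 untested and 0 of the 9 at E16.5. A threshold of 0.01 left 56 and 132 genes, 0 of the 9 at E16.5 (Ece1 -2.56) and 2 pathway genes in adults. The cause of these shifts was not tested.

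With 1 library left out, 27 to 357 genes were called higher in adults and 16 to 1704 at E16.5, the fewest without any 1 of the E16.5 libraries (43 to 112 in all). Of the 9 genes 0 to 2 were called in each direction, and of the pathway genes 2 to 9 in adults and 0 to 2 at E16.5. Aplp1 ranged from 0.34 to 1.02 and Cst3 from -1.01 to -0.20, both passing without adult replicate 3. Ide ranged from -1.71 to -0.92, and Psen2 from -1.71 to 0.50, turning without adult replicate 3. Ece1 ranged from -2.76 to -2.43 at a pseudocount of 1, a range that leaves out its dependence on the pseudocount. Adam9 ranged from -0.10 to 0.24, turning without adult replicate 1 (-0.06) or E16.5 replicate 3, and Apoe from -0.08 to 0.28, turning without E16.5 replicate 3.

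The ages share replicate numbers, and the labels pair no adult with an E16.5 sample. Deviations of same-numbered samples correlated at 0.000895, 0.0439 and 0.015, none above 0.1. Those of samples with unlike numbers correlated at -0.0292 to 0.0135. Such correlations over 3 samples an age cannot show whether same-numbered samples were prepared together, and nothing is concluded from them. A replicate block called 564 genes in place of 1270 (112 higher in adults, 452 at E16.5), 3 pathway genes in adults and 0 of the 9 at E16.5, with Ece1 at -2.56 (limma, adjusted p = 0.0868).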
